A study of Mus musculus with 12 samples.

Results

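Inguinal and epididymal white adipose tissue of male wild-type C57BL/6N mice were compared on expression arrays, with 2 arrays of inguinal fat and 2 of epididymal fat among the 12 arrays of the series. The members were all genes with a probe set carrying 1 gene symbol, each read on its brightest probe set, which gave 22180 genes. The wild-type mice had received repeated intraperitoneal injections of diphtheria toxin, 500 ng per dose, and tissue was taken on day 10. They lacked the toxin receptor, so these depots still held the CD301b+ mononuclear phagocytes that the toxin removes elsewhere in the series. The same pair of depots was also measured in age-matched male Mgl2-DTR mice on the toxin, in which the receptor sits under Mgl2, the gene for CD301b, with 2 arrays each, and the liver of both genotypes filled the remaining 4 arrays. All 12 arrays therefore came from toxin-treated mice, and an untreated depot was not analysed here. The labels give no animal numbers, so p-values measure the spread between these arrays, which may be technical in part.

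White fat stores triglyceride in adipocytes that lie among vessels, progenitors and macrophages. The inguinal pad lies under the skin and is the rodent subcutaneous depot in which beige, heat-producing adipocytes appear most readily. The epididymal pad lies in the abdominal cavity beside the testis, is covered by mesothelium, and is the depot best known for gathering macrophages in obesity.

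Levels are deposited log2 values, on which a difference of 1 is a doubling, and all differences are inguinal minus epididymal. A gene was tested when its mean exceeded 5.71, the median of all probe sets with 1 symbol, in at least 1 tissue, which kept 12710 genes. A gene was called at a limma adjusted p under 0.05, with 1 spread estimate shared by the 6 groups of 2 arrays. Such a pair of groups cannot be tested by permutation, since 2 arrays against 2 allow an exact p no lower than 0.333. Probe set correlations were 0.983 between the inguinal arrays, 0.979 between the epididymal arrays and 0.968 to 0.980 between depots. The 17 adipocyte genes tested averaged 11.57 and 11.41 in inguinal fat and 10.98 and 11.42 in epididymal fat, so adipocyte genes were high in all 4 arrays. Mgl2 itself read 7.07 and 7.36 in inguinal fat and 7.46 and 7.22 in epididymal fat, a difference of -0.12 (SE 0.24, limma adjusted p = 0.863). In Mgl2-DTR fat it read 4.12 to 4.72.

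The 4 arrays differed on gene lists of other cell types and of the cell cycle, and 3 of them stood apart. Inguinal replicate 2 carried skeletal muscle genes, with a mean of 9.74 over 19 genes against 6.55 in inguinal replicate 1 and 5.48 and 5.98 in epididymal fat, and it was the highest of the 4 arrays for all 19. Epididymal replicate 1 was the highest for 16 of 19 macrophage genes, 13 of 13 genes of lipid-associated macrophages and 18 of 18 cell cycle genes. Epididymal replicate 2 exceeded epididymal replicate 1 for 18 of 18 hepatocyte genes (means 6.01 and 4.73) and for 20 of 20 mesothelial genes (8.01 and 7.17). The lowest mean of the muscle list was 5.48 and that of the hepatocyte list 4.73, both under the 5.71 level. Beyond leaving arrays out and a fit with the mean of the muscle list as a covariate, which left 72 wild-type calls, the part of these signals in the results was not tested.

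**Figure D1:**
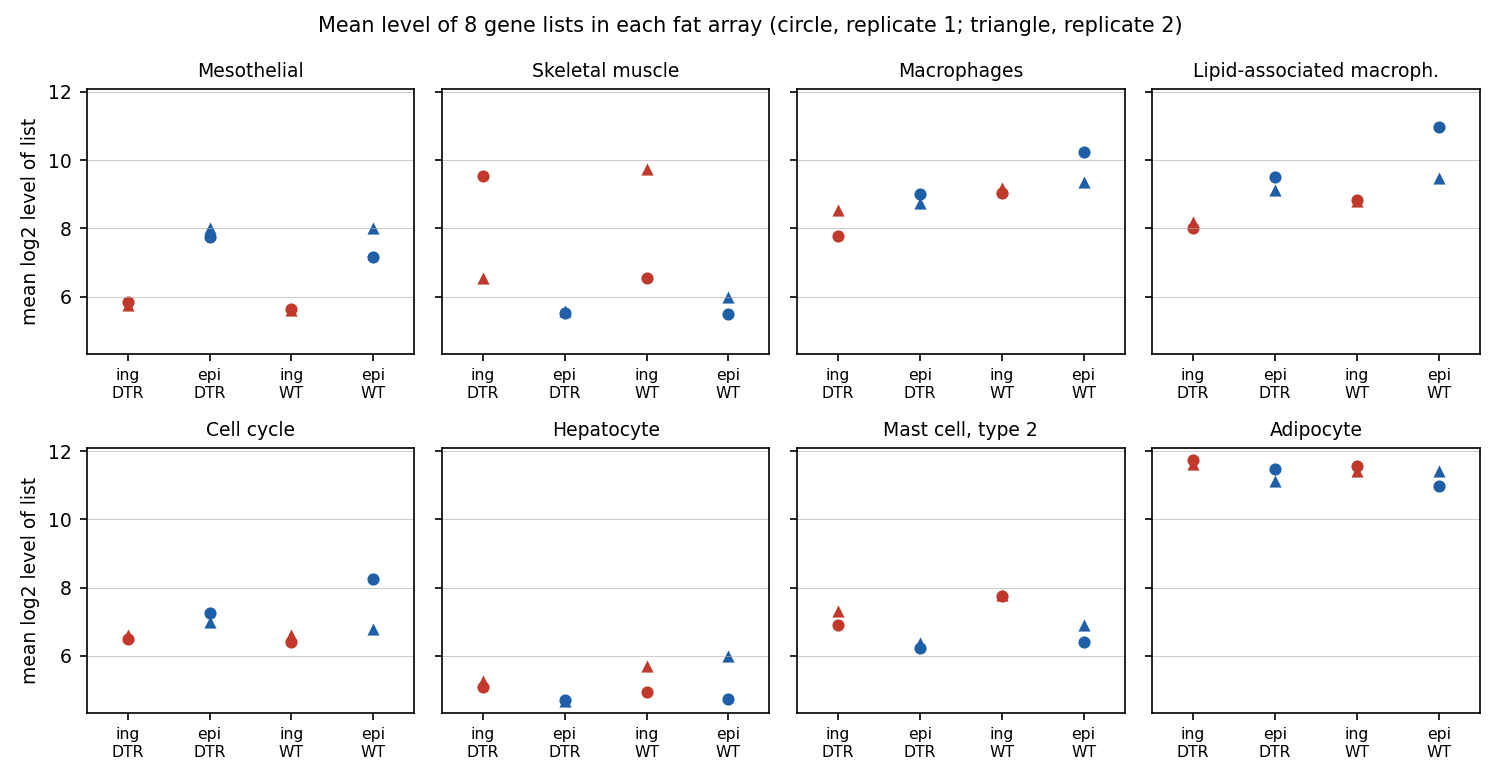
Mean log2 level of 8 gene lists (vertical axis) in each of the 8 fat arrays, with inguinal (ing, red) and epididymal (epi, blue) fat of Mgl2-DTR (DTR) and wild-type (WT) mice along the horizontal axis. Circles are replicate 1 and triangles replicate 2. Inguinal replicate 2 of wild-type mice sits at 9.74 for muscle, epididymal replicate 1 at 8.24 for cell cycle genes, and the adipocyte list lies between 10.98 and 11.73 in every array.

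Start regions of 5 genes with very large depot differences are shown first, because these genes carry differences the results turn on. They are RefSeq sequences of build GRCm38.p6, from 250 bases before to 50 bases after the annotated start, and 23 of the 32 leading genes named below had an entry. Mmp3, Il1r2 and Cox8b are genes higher in inguinal fat, while Col6a5 and Upk3b are lower there. Capitals mark matches on either strand to 5 motifs. The TATA box was searched as TATAAA and the GC box as GGGCGG. The CCAAT box is spelled by its name. The AP-1 site was searched as TGANTCA, and the E-box as CACGTG. Mmp3 lies at chr9:7445572-7445871 on the plus strand, Il1r2 at chr1:40085843-40086142 on the plus strand, Cox8b at chr7:140900397-140900696 on the minus strand, Col6a5 at chr9:105960594-105960893 on the minus strand and Upk3b at chr5:136038246-136038545 on the plus strand.
Mmp3: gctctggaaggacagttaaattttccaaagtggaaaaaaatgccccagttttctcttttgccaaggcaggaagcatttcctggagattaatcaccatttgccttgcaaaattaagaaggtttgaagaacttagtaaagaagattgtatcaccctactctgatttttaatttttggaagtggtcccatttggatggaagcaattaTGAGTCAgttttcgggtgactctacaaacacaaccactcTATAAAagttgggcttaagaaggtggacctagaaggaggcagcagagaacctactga
Il1r2: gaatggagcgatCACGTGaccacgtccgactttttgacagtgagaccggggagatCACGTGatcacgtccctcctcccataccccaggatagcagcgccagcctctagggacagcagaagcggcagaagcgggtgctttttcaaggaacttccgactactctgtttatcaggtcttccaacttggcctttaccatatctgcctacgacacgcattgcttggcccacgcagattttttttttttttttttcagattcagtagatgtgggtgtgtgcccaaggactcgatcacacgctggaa
Cox8b: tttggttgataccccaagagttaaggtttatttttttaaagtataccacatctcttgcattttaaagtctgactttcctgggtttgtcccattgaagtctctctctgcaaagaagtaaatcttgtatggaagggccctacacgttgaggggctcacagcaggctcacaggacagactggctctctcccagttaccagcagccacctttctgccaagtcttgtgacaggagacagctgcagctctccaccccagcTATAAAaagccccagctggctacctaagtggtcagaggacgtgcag
Col6a5: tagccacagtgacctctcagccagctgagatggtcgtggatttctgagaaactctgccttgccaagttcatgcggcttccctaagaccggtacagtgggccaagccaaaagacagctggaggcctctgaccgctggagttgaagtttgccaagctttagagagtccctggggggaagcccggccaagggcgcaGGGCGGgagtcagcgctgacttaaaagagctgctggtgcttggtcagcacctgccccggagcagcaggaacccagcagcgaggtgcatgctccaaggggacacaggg
Upk3b: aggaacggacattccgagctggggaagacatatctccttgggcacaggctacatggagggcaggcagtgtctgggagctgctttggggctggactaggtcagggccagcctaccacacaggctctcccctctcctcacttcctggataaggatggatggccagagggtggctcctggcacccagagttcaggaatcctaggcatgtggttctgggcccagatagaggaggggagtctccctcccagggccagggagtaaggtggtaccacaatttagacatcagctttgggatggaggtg
The Mmp3 window held TGANTCA at -46 and TATAAA at -7 from the annotated start, Cox8b held TATAAA at +5, Il1r2 held CACGTG at -238 and -195, and Col6a5 held GGGCGG at -57. No letters of the 5 motifs were found in the Upk3b window. Among 32851 promoters of the same length, 13.6% held TATAAA, 35.7% GGGCGG, 37.4% CCAAT, 7.81% TGANTCA and 7.15% CACGTG. The matches describe the letters only.

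Inguinal and epididymal fat of wild-type mice differed in 190 genes, of which 106 were higher and 84 lower in inguinal fat. These were 1.49% of the 12710 genes tested, 0.834% higher and 0.661% lower. Among the called genes, 158 differed at least 2-fold, 87 of them higher and 71 lower, and the median absolute difference was 1.43. At an unadjusted p under 0.05, 838 genes were higher and 1162 lower. In 66 of the 190 genes the lower depot was under the 5.71 level, where detection could not be judged from the values, and in 2 of these 66 both depots were. The inguinal and epididymal arrays did not overlap in any of the 190 called genes, against 46.7% of all genes tested. The calls were made from these same arrays and favour such genes, so the lack of overlap adds no separate support. The median over all genes was -0.02.

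**Figure D2:**
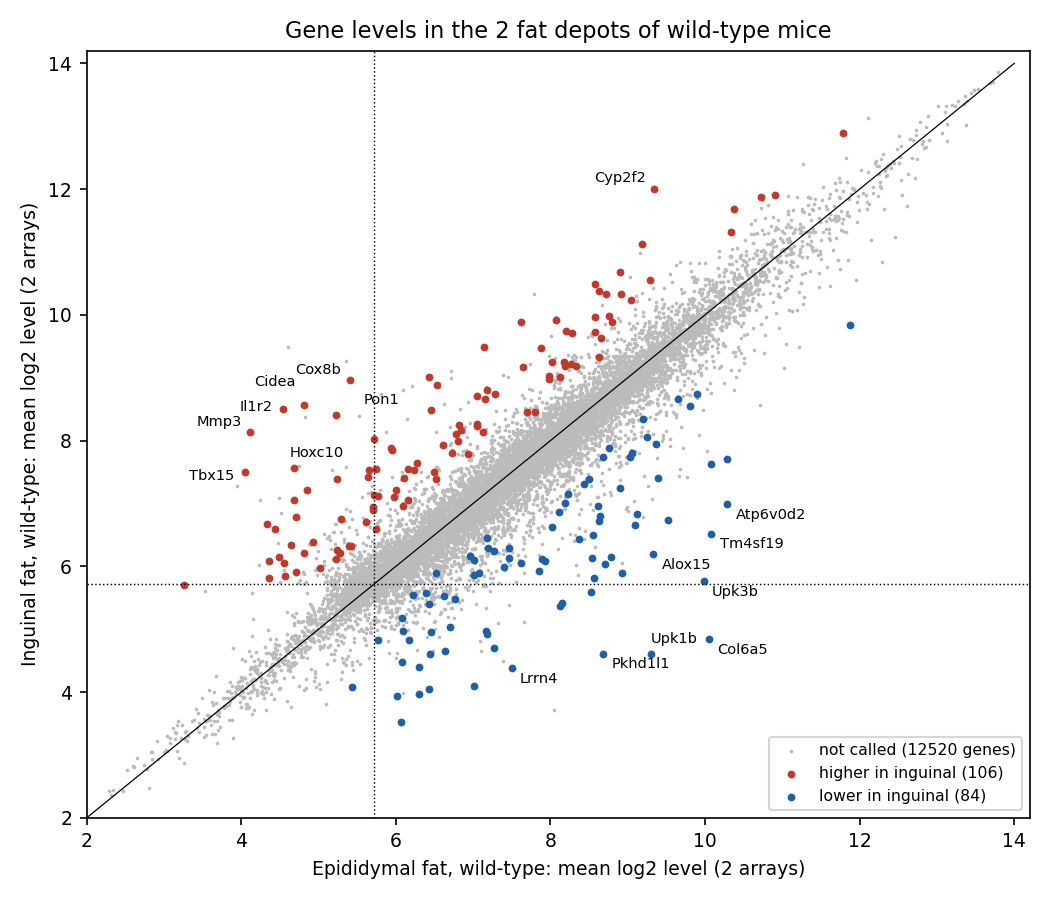
Mean log2 level of 12710 genes in inguinal fat (vertical axis) and epididymal fat (horizontal axis) of wild-type mice, 2 arrays each. Red points are the 106 genes called higher and blue points the 84 called lower in inguinal fat, grey points are not called, the solid line is equality and the dotted lines mark 5.71. Mmp3, Il1r2, Cidea and Tbx15 lie far above the line at an epididymal level under 5.71, and Col6a5, Upk1b and Upk3b far below it.

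The number of calls moved with single arrays. Without inguinal replicate 2 there were 73 calls and without inguinal replicate 1 there were 77, while without epididymal replicate 2 there were 1445, 188 of them among the 190. A depot left with 1 array was assumed to vary like the other groups. Only called genes named by the rules given below were followed through the omissions. Called genes picked after their values were seen, such as Shox2, Msln, Mcemp1 and Mmp2, were not. Of the 68 called genes named here, 34 kept the call whichever of the 12 arrays was left out, and all 68 kept their direction. Another 13 lost it only without an inguinal wild-type array: Pon1, Akr1c18, Gpm6a, Bnc1 and Mest without replicate 2 alone, and Cd209g, Tpsb2, Slc25a1, Agt, Col6a3, Rspo1, Fgf1 and C6 without either. Cma1 lost it without either inguinal array or without epididymal replicate 1. The other 20 also lost it without at least 1 liver or Mgl2-DTR array, which enter through the shared spread: Mcpt4, Tm4sf19, Atp6v0d2, Cyp2s1, Il7r, Mmp12, Gpnmb, Otop1, Acss2, Acaca, Acadvl, Cpt1a, Thy1, Col1a1, Col1a2, Dkk2, Wnt2, Acvr2a, Igfbp2 and Grb14.

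Among called genes, those with the largest rises in inguinal fat coded for a matrix protease, a decoy cytokine receptor, thermogenic adipocyte proteins and factors of body position. Mmp3, stromelysin-1, which cuts extracellular matrix, read 8.04 and 8.22 in inguinal fat and 4.12 and 4.11 in epididymal fat. It rose by 4.01 on the log2 scale (SE 0.38, limma adjusted p = 0.00139). Il1r2, a decoy receptor that binds interleukin-1 without signalling, read 8.24 and 8.76 in inguinal fat and 4.60 and 4.47 in epididymal fat (3.96, SE 0.18, limma adjusted p = 1.75e-05). In both genes the epididymal arrays lay under 5.71 and well below either inguinal array.

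Enzymes came next. Cyp2f2, a cytochrome P450, read 12.01 in each inguinal array and 8.75 and 9.92 in epididymal fat (2.67, SE 0.33, limma adjusted p = 0.00424), and its next probe set gave a smaller difference of 1.74. Pon1, a paraoxonase carried in blood on lipoproteins, read 8.27 and 8.55 in inguinal fat and 4.40 and 6.07 in epididymal fat (3.18, SE 0.42, limma adjusted p = 0.00617). The epididymal arrays differed from each other in both genes without reaching inguinal levels. The higher was replicate 2, which was also the higher epididymal array for hepatocyte genes. Wild-type liver averaged 12.83 for Cyp2f2 and 12.13 for Pon1. Whether these signals are connected was not tested. Akr1c18, which inactivates progesterone, read 7.05 and 7.39 in inguinal fat and 4.70 and 5.0 in epididymal fat (2.37, SE 0.30, limma adjusted p = 0.0047). It was the 1 gene called among 12 of steroid action and metabolism, whose median was 0.29, and 0 to 3 were called higher as single arrays were left out.

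The chemokine Cxcl14 read 9.42 and 9.54 in inguinal fat and 7.45 and 6.84 in epididymal fat (2.34, SE 0.26, limma adjusted p = 0.00262). H2-M9, a nonclassical MHC class I gene, read 6.57 and 6.78 in inguinal fat against 4.36 and 4.30 in epididymal fat (2.34, SE 0.29, limma adjusted p = 0.00436). Zfhx4, a zinc finger homeobox factor, read 9.01 and 8.75 in inguinal fat against 6.19 and 6.87 in epididymal fat (2.35, SE 0.21, limma adjusted p = 0.00121). Of the 16 leading higher genes, 10 had an epididymal mean under 5.71.

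The largest called fall in inguinal fat was that of Col6a5, a chain of the microfibril collagen VI. It read 5.33 and 4.35 in inguinal fat and 10.10 and 10.00 in epididymal fat (-5.20, SE 0.28, limma adjusted p = 3.12e-05). Its family member Col6a3 moved the other way, at 10.37 and 10.31 in inguinal fat and 8.94 and 8.48 in epididymal fat (1.62, SE 0.24, limma adjusted p = 0.0106), while Col6a1 and Col6a2 gave 0.10 and 0.23 and were not called. Lrp2, the endocytic receptor megalin, read 4.06 and 4.12 in inguinal fat and 6.51 and 7.51 in epididymal fat (-2.92, SE 0.27, limma adjusted p = 0.00124). Hspb7, a small heat shock protein, read 5.51 and 6.11 in inguinal fat against 8.30 and 8.81 in epididymal fat (-2.75, SE 0.27, limma adjusted p = 0.00152). Plet1, a surface protein of epithelial progenitors, read 5.77 and 6.52 in inguinal fat and 8.67 and 8.89 in epididymal fat (-2.64, SE 0.30, limma adjusted p = 0.00308). Depots that did not overlap were a condition for naming the 16 leading lower genes, and in 8 of them the inguinal mean was under 5.71.

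**Figure D3:**
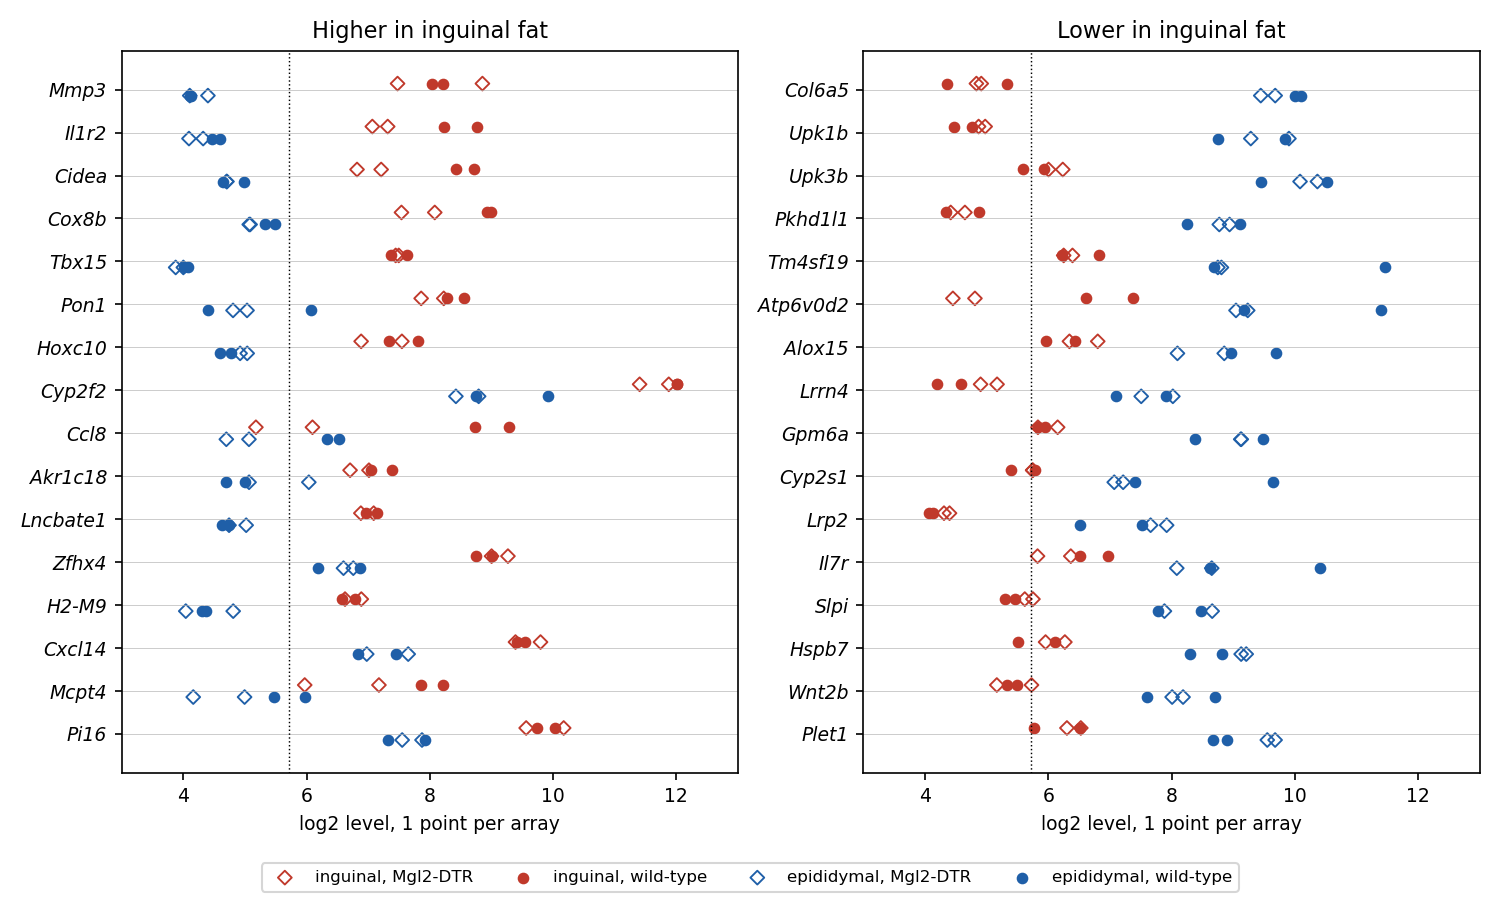
Log2 level (horizontal axis, 1 point per array) of the 16 genes with the largest called rises (left) and the 16 with the largest called falls (right) in inguinal fat. Red is inguinal and blue epididymal fat, filled circles are wild-type and open diamonds Mgl2-DTR mice, and the dotted line marks 5.71. Circles of the depots do not overlap, which the choice of these genes required. Tm4sf19, Atp6v0d2 and Il7r each have 1 epididymal wild-type array, replicate 1, far to the right of the other.

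Genes of body position set the depots apart in both directions. Of 68 listed Hox, T-box and other homeobox or position genes, 43 were tested, 7 were called higher and 3 lower in inguinal fat, and their median was 0.15. Tbx15, a T-box factor of the trunk and subcutaneous fat, read 7.37 and 7.63 in inguinal fat and 4.02 and 4.08 in epididymal fat (3.45, SE 0.15, limma adjusted p = 1.75e-05). Hoxc10 read 7.80 and 7.34 in inguinal fat and 4.59 and 4.77 in epididymal fat (2.89, SE 0.28, limma adjusted p = 0.00152). Hoxa9 and Hoxc9, also posterior Hox genes, rose by 2.16 and 1.81, and Shox2, Tbx5 and Prrx1, factors of limb mesenchyme, by 1.51, 1.27 and 1.04. The neighbours Hoxc8, Hoxa7 and Hoxc6 gave 0.04, 0.11 and 0.52 and were not called. Tcf21, a factor of visceral mesoderm, read 4.47 and 4.32 in inguinal fat and 5.96 and 6.64 in epididymal fat (-1.90, SE 0.22, limma adjusted p = 0.00315). Wt1 and Bnc1, which also stand on the mesothelial list, fell by 1.57 and by 2.38.

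Mesothelial genes were lower in inguinal fat as a group. All 20 tested of 21 listed were below 0, 12 were called lower and none higher, and the median was -1.98. Upk1b, a uroplakin of the mesothelial surface, read 4.47 and 4.76 in inguinal fat and 8.75 and 9.84 in epididymal fat (-4.68, SE 0.32, limma adjusted p = 0.000168). Upk3b, its relative, read 5.93 and 5.59 in inguinal fat and 9.45 and 10.52 in epididymal fat (-4.22, SE 0.30, limma adjusted p = 0.000168). Either uroplakin was far higher in both epididymal arrays, and highest in replicate 2. Pkhd1l1, a large membrane protein, gave -4.07, Lrrn4, a leucine-rich repeat protein, -3.12, Gpm6a, a membrane glycoprotein, -3.04 and Slpi, a secreted protease inhibitor, -2.75. Mesothelin (Msln) gave -2.58, and its binding partner Muc16 -2.54. The keratins Krt7, Krt8, Krt18 and Krt19, which other epithelia also make, gave -0.77, -0.69, -0.23 and -0.89 and were not called. Inguinal arrays averaged 5.65 and 5.59 over the list and epididymal arrays 7.17 and 8.01, and leaving out single arrays left 8 to 13 members called lower. In bulk tissue, fewer cells of a type and less RNA per cell cannot be told apart, here and below.

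Secreted signals and retinoid enzymes were called in both directions. Rspo1, a secreted amplifier of Wnt signals on the mesothelial list, read 6.80 and 6.51 in inguinal fat and 8.42 and 9.75 in epididymal fat (-2.43, SE 0.36, limma adjusted p = 0.0109). Wnt2b, a Wnt ligand, read 5.50 and 5.32 in inguinal fat and 7.61 and 8.70 in epididymal fat (-2.75, SE 0.34, limma adjusted p = 0.00469). Both were higher in epididymal replicate 2 than in replicate 1. Aldh1a2, which makes retinoic acid, read 5.71 and 6.47 in inguinal fat and 8.06 and 7.81 in epididymal fat (-1.85, SE 0.24, limma adjusted p = 0.00569). Adh7, a retinol-oxidising alcohol dehydrogenase, went the other way, at 6.03 and 6.28 in inguinal fat and 4.35 and 4.62 in epididymal fat (1.67, SE 0.18, limma adjusted p = 0.00253). These were the 2 calls among 16 retinoid genes (median 0.12). Of 34 Wnt genes (median 0.09), Dkk2, a secreted Wnt inhibitor, and the ligand Wnt2 rose by 1.46 and 0.89, beside the falls of Wnt2b and Rspo1. Leaving out single arrays gave 0 to 4 Wnt genes called higher and 1 to 3 lower, and 1 to 2 retinoid genes in each direction.

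A few genes of heat-producing adipocytes were far higher in inguinal fat, while none of the 17 general adipocyte genes was called (median 0.27). Cidea, which coats lipid droplets in brown and beige fat cells, read 8.72 and 8.43 in inguinal fat and 4.64 and 4.99 in epididymal fat (3.76, SE 0.19, limma adjusted p = 2.24e-05). Cox8b, a cytochrome c oxidase subunit of brown fat and muscle, read 8.99 and 8.93 in inguinal fat and 5.32 and 5.48 in epididymal fat (3.56, SE 0.20, limma adjusted p = 3.69e-05). The depots did not overlap in either gene, which the naming rule required. The muscle list averaged 6.55 in inguinal replicate 1 and 9.74 in inguinal replicate 2. With the mean of that list as a covariate the differences were 3.70 for Cidea and 3.38 for Cox8b, at limma adjusted p = 0.000821 and 0.00125. Otop1, a proton channel also known from beige fat, read 6.76 and 6.82 in inguinal fat and 4.70 and 4.72 in epididymal fat (2.08, SE 0.40, limma adjusted p = 0.0383). Lncbate1, a noncoding RNA of brown adipocytes outside the list, read 6.96 and 7.14 in inguinal fat and 4.63 and 4.74 in epididymal fat (2.36, SE 0.19, limma adjusted p = 0.000598). The 3 called genes were among 15 tested of 20 brown and beige genes, with a median of 0.61, and 2 to 5 were called higher as single arrays were left out. The coactivator Ppargc1a gave 1.01, Prdm16, a factor of brown fat identity, 0.80, and Elovl3, a fatty acid elongase, -0.24, none of them called. Of the 15 genes tested, 3 were below 0, the lowest at -0.88. In Mgl2-DTR fat 2 of the list were called higher and 1 lower.

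Some genes that make fatty acids were higher in inguinal fat. Of 23 tested, 3 were called higher and none lower, with a median of 0.70. Differences were below 0 in 4 of the 23, the lowest at -1.22. Acss2, which makes acetyl-CoA from acetate, read 9.89 and 9.53 in inguinal fat and 8.07 and 8.49 in epididymal fat (1.43, SE 0.28, limma adjusted p = 0.0417). Acaca, acetyl-CoA carboxylase, read 11.86 and 11.50 in inguinal fat and 10.03 and 10.72 in epididymal fat (1.31, SE 0.26, limma adjusted p = 0.0454). Slc25a1, the citrate carrier of mitochondria, read 11.97 and 11.84 in inguinal fat and 10.71 and 11.11 in epididymal fat (1.0, SE 0.16, limma adjusted p = 0.0145). Epididymal replicate 1 was the lower epididymal array for all 3. Elovl6, Me1 and Fasn gave 1.58, 1.19 and 1.02 and were not called. The count was 0 without inguinal replicate 1 and 10 without epididymal replicate 2.

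All 25 nuclear-encoded respiratory chain genes had differences above 0, between 0.06 and 0.63, with a median of 0.40. None was called, 16 had an unadjusted p under 0.05, and the arrays did not overlap in 23, against 46.7% of all genes tested. The smallest p belonged to Cyc1, cytochrome c1 of complex III, at 8.65 and 8.73 in inguinal fat and 7.89 and 8.23 in epididymal fat (0.63, SE 0.15, limma adjusted p = 0.101). The list averaged 9.81 and 9.75 in the inguinal arrays against 9.35 and 9.49 in the epididymal arrays, and 5 members were called without epididymal replicate 2. Of 16 genes of fatty acid oxidation (median 0.37), Acadvl, the very-long-chain acyl-CoA dehydrogenase, rose by 0.71 and Cpt1a, which brings fatty acids into mitochondria, fell by 1.25, each at a limma adjusted p of 0.0497. Leaving out single arrays gave 0 to 5 called higher and 0 to 1 lower.

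Of 15 genes tested on the adipokine list (median 0.29), Mest and Agt fell. Mest, an imprinted gene that marks expanding fat, read 8.04 and 7.23 in inguinal fat and 10.11 and 10.04 in epididymal fat (-2.44, SE 0.37, limma adjusted p = 0.012). Agt, angiotensinogen, read 7.31 and 7.49 in inguinal fat and 8.82 and 9.95 in epididymal fat (-1.99, SE 0.31, limma adjusted p = 0.0135). Leptin (Lep) and adiponectin (Adipoq) gave -0.18 and 0.29 and were not called. Among 20 genes of insulin action (median 0.35), Grb14, an inhibitor of the insulin receptor, rose by 1.29 (SE 0.24, limma adjusted p = 0.0356). Of 29 growth factor genes (median 0.15), Fgf7, a fibroblast-made ligand for epithelium, rose by 1.41, while Fgf1 and Igfbp2, an IGF-binding protein, fell by 1.65 and by 1.02. Of 37 BMP and TGF-beta genes (median 0.03), the activin receptor Acvr2a rose by 0.66. As single arrays were left out, the insulin list had 0 to 7 members called higher, the growth factor list 1 to 7 higher and 0 to 3 lower, the BMP and TGF-beta list 0 to 3 higher and 0 to 4 lower, and the adipokine list 0 to 2 higher and 0 to 3 lower. The most called higher came without epididymal replicate 2 in all 4 lists. Without epididymal replicate 1 the medians were 0.27 for insulin action and -0.08, -0.09 and -0.02 for growth factor, BMP and TGF-beta, and adipokine genes.

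**Figure D4:**
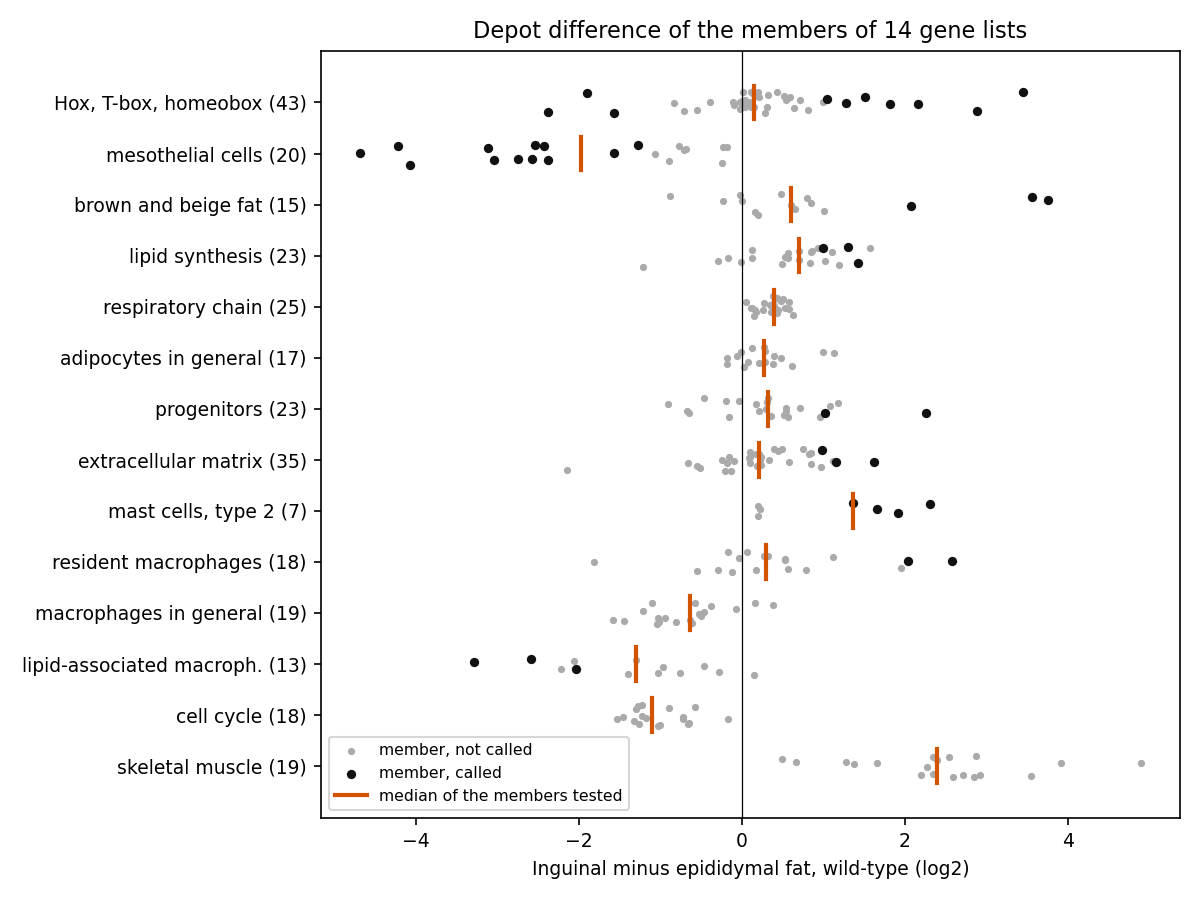
Inguinal minus epididymal difference in wild-type fat (horizontal axis, log2) of each tested member of 14 gene lists, with the number tested in brackets. Black points are called, grey points are not, and the orange bar is the median of the list. Mesothelial genes lie below 0 with a median of -1.98, respiratory chain genes lie within 0.06 to 0.63, and the muscle genes reach 4.89 without a call.

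Proteases of mast cells were higher in inguinal fat. Of 7 tested of 17 listed genes of mast cells and type 2 immunity, 4 were called higher and none lower, with a median of 1.37. Cpa3, a mast cell carboxypeptidase, read 10.48 and 10.49 in inguinal fat and 8.30 and 8.84 in epididymal fat (1.91, SE 0.24, limma adjusted p = 0.0052). The mast cell chymase Mcpt4 read 8.21 and 7.85 in inguinal fat and 5.47 and 5.97 in epididymal fat (2.31, SE 0.45, limma adjusted p = 0.0413). Both inguinal arrays exceeded both epididymal arrays in each, as in every gene called higher. Tpsb2, a tryptase, and Cma1, a chymase, rose by 1.66 and 1.37. Kit, the receptor that mast cells need, gave 0.20 and was not called. Without inguinal replicate 1 the count was 1. Mcemp1, a membrane protein named for mast cells and not on the list, went the other way, at 5.07 and 5.29 in inguinal fat and 5.95 and 6.20 in epididymal fat (-0.89, limma adjusted p = 0.0413).

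Macrophage genes were called in both directions. Of 18 genes of resident macrophages, 2 were called higher in inguinal fat and none lower, with a median of 0.30. Differences were below 0 in 6 of the 18, the lowest at -1.81. In Mgl2-DTR fat 0 of the list were called higher and 1 lower. Ccl8, a chemokine of resident macrophages, read 9.28 and 8.73 in inguinal fat and 6.33 and 6.53 in epididymal fat (2.57, SE 0.30, limma adjusted p = 0.00316). Cd209g, a lectin of the DC-SIGN family, read 8.32 and 8.65 in inguinal fat and 5.90 and 7.0 in epididymal fat (2.04, SE 0.31, limma adjusted p = 0.0126). The haemoglobin scavenger receptor Cd163 gave 1.96 and Mrc1, the mannose receptor, 0.28, neither of them called. The count was 1 without inguinal replicate 1 and 4 without inguinal replicate 1 of Mgl2-DTR mice.

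Of 13 genes of lipid-associated macrophages, which take up lipid around dying adipocytes, 3 were called lower in inguinal fat and none higher, with a median of -1.30. Atp6v0d2, a proton pump subunit of macrophages and osteoclasts, read 6.62 and 7.37 in inguinal fat and 11.40 and 9.17 in epididymal fat (-3.29, SE 0.61, limma adjusted p = 0.0335). Mmp12, macrophage elastase, read 7.74 and 7.66 in inguinal fat and 11.00 and 9.57 in epididymal fat (-2.58, SE 0.52, limma adjusted p = 0.0468). Gpnmb, a glycoprotein of lipid-laden macrophages, read 9.89 and 9.80 in inguinal fat and 12.68 and 11.09 in epididymal fat (-2.04, SE 0.40, limma adjusted p = 0.0417). Epididymal replicate 1 was the highest array for each, and without it the differences were -2.18, -1.87 and -1.24. Trem2, the lipid receptor of these cells, gave -2.23 and was not called. The list averaged 8.84 and 8.80 in the inguinal arrays against 10.97 and 9.49 in the epididymal arrays. Its count was 0 without inguinal replicate 1 and 9 without epididymal replicate 2.

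Epididymal replicate 1 was also the high array in other falls. Tm4sf19, a small membrane protein outside the lists, read 6.22 and 6.83 in inguinal fat and 11.47 and 8.69 in epididymal fat (-3.56, SE 0.68, limma adjusted p = 0.0379), and gave -2.17 without epididymal replicate 1. Cyp2s1, a cytochrome P450, read 5.79 and 5.40 in inguinal fat and 9.64 and 7.41 in epididymal fat (-2.94, SE 0.58, limma adjusted p = 0.0445), and gave -1.82 without it. Il7r, the interleukin-7 receptor, read 6.51 and 6.97 in inguinal fat and 10.42 and 8.62 in epididymal fat (-2.78, SE 0.48, limma adjusted p = 0.0244), and was the 1 call among 10 T and NK cell genes (median 0.26). Alox15, a lipoxygenase of peritoneal macrophages, was highest in epididymal replicate 2, at 5.96 and 6.43 in inguinal fat and 8.96 and 9.70 in epididymal fat (-3.13, SE 0.33, limma adjusted p = 0.0022). None of 19 general macrophage genes was called, with a median of -0.64 and means of 9.03 and 9.17 in inguinal fat and 10.25 and 9.36 in epididymal fat, but 10 were called lower without epididymal replicate 2. None of 18 cell cycle genes was called either, although all were below 0 (median -1.10), with means of 6.42 and 6.60 in inguinal fat and 8.24 and 6.80 in epididymal fat. Without epididymal replicate 2, 17 of them were called lower, and without epididymal replicate 1 the median was -0.35.

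A few stromal genes were higher in inguinal fat. Of 23 progenitor genes (median 0.32), Pi16 and Thy1 were called higher and none lower, but 7 were below 0, the lowest at -0.91. In Mgl2-DTR fat the median of this list was -0.06, with 1 gene called higher and 1 lower. Pi16, a marker of progenitors around vessels and in the interstitium, read 9.74 and 10.03 in inguinal fat and 7.33 and 7.92 in epididymal fat (2.26, SE 0.25, limma adjusted p = 0.00282). Thy1, a surface protein of fibroblasts and T cells, read 8.01 and 8.27 in inguinal fat and 7.09 and 7.16 in epididymal fat (1.01, SE 0.18, limma adjusted p = 0.0257). Of 35 matrix genes (median 0.21), 3 were called higher: Col6a3, and the collagen I chains Col1a1 and Col1a2 with 1.15 and 0.98. None was called lower, but 10 were below 0, the lowest at -2.14, and Col6a5 was not on this list. The depots did not overlap for any of these called genes, as in all 190 called genes. Leaving out single arrays moved the progenitor count between 1 and 6 and the matrix count between 0 and 4. Complement C6, a member of the membrane attack complex, fell by 1.92 (SE 0.28, limma adjusted p = 0.0106) as the 1 call among 25 complement and coagulation genes (median -0.08), where single omissions gave 0 to 4 lower and 0 to 3 higher.

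Gadd45b, a stress-induced growth arrest gene, was the 1 call among 25 immediate early genes, whose median was -0.35. It read 6.74 and 6.91 in inguinal fat and 9.19 and 9.06 in epididymal fat (-2.30, SE 0.15, limma adjusted p = 0.000125). Chst4, a sulfotransferase of lymph node vessels, fell by 2.33 (SE 0.27, limma adjusted p = 0.00315) among 3 tested genes of lymph node stroma, with 4.09 and 3.86 in inguinal fat and 5.82 and 6.79 in epididymal fat.

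Skeletal muscle genes had the highest list median, 2.39, and no call. All 19 tested of 24 listed were above 0 and the arrays did not overlap in 18, against 46.7% of all genes tested. Myh4, a fast myosin, read 7.25 and 11.74 in inguinal fat and 3.66 and 5.54 in epididymal fat (4.89, SE 1.60, limma adjusted p = 0.198). Inguinal replicate 2 was the high array. The median was 0.76 without inguinal replicate 2 and 4.26 without inguinal replicate 1. The epididymal duct and testis list averaged 5.61 and 5.54 in inguinal fat and 5.58 and 5.80 in epididymal fat over 7 genes, with no call. Only 1 of the 7 was above the 5.71 level in wild-type fat, so the list says little about these arrays. None of 18 hepatocyte genes was called, with means of 4.94 and 5.71 in inguinal fat and 4.73 and 6.01 in epididymal fat, and Alb, albumin, read 9.46 and 9.88 in inguinal fat and 6.51 and 9.50 in epididymal fat (1.67, SE 0.73, limma adjusted p = 0.313).

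No call was made in the remaining 13 of the 41 lists, which held between 2 and 19 tested genes. Their medians were 0.20 for blood endothelium, -0.46 for lymphatic endothelium, 0.32 for mural cells, 0.33 for Schwann cells, -0.25 for B cells, 0.30 for dendritic cells, -0.16 for MHC class II, -0.03 for neutrophils, 0.40 for interferon-stimulated genes and 0.29 for lipolysis and the lipid droplet. Skin epithelium, glandular epithelium and pancreas and gut had 4, 6 and 2 genes tested and medians of 0.09, -0.26 and 0.17. Mmrn1, a lymphatic endothelial protein, came nearest to a call at 6.15 and 5.92 in inguinal fat and 7.0 and 8.19 in epididymal fat (-1.56, SE 0.34, limma adjusted p = 0.0657).

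The same depots were compared in Mgl2-DTR mice, whose 4 fat arrays are separate from the wild-type arrays and share the spread estimate alone. There 249 genes were called, 1.96% of those tested, with 114 higher (0.897%) and 135 lower (1.06%) in inguinal fat. Of the 190 genes called in wild-type mice, 188 had the same sign in Mgl2-DTR mice, against 69.8% of all genes tested, and in 183 the Mgl2-DTR arrays did not overlap in that direction. Over all genes tested, the Mgl2-DTR arrays did not overlap in 52.8%, a share that counts either direction. The call was shared by 115 genes, 46.2% of those called in Mgl2-DTR mice and 60.5% of those called in wild-type mice. The median absolute difference over the 190 genes was 1.24 in Mgl2-DTR and 1.43 in wild-type mice, whose values chose the genes. The exceptions in sign were Thy1, at -0.09 in Mgl2-DTR and 1.01 in wild-type mice, and Mcemp1, at 0.09 in Mgl2-DTR and -0.89 in wild-type mice. Across all 12710 genes the differences of the genotypes correlated at r = 0.70, where genes are not independent replicates.

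Mmp3 gave 3.91 in Mgl2-DTR and 4.01 in wild-type mice, Tbx15 3.53 and 3.45 in the same order, and Upk1b -4.67 and -4.68. Col6a5 gave -4.69 in Mgl2-DTR and -5.20 in wild-type mice. These genes were called in both genotypes, as were 13 of the 16 leading higher and 14 of the 16 leading lower genes. The muscle list had the opposite replicate high, with means of 9.53 and 6.54 in Mgl2-DTR inguinal fat. In epididymal replicate 2 of Mgl2-DTR mice the epididymal duct and testis list averaged 11.13.

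Whether the depot difference itself differed between the genotypes was tested as an interaction, and no gene passed. At an unadjusted p under 0.05 there were 364 genes, and the smallest limma adjusted p was 0.341. With 2 arrays per group an absence of calls does not show that the depots differ alike. The smallest p with a positive interaction belonged to Gadd45b, whose depot difference was -0.83 in Mgl2-DTR and -2.30 in wild-type mice (1.47, SE 0.21, limma adjusted p = 0.341). Itgb8, an integrin subunit that activates TGF-beta, gave 1.45 in Mgl2-DTR and -0.21 in wild-type mice (1.66, SE 0.28, limma adjusted p = 0.905), and Cyp4f14, a fatty acid hydroxylase, 0.71 and -0.23. With a negative interaction, Myb, a blood cell transcription factor, gave -0.96 in Mgl2-DTR and 0.55 in wild-type mice (-1.51, SE 0.20, limma adjusted p = 0.341). Cidea gave 2.31 in Mgl2-DTR and 3.76 in wild-type mice, and Igsf3, an immunoglobulin-like membrane protein, -0.81 and 0.05, both at a limma adjusted p of 0.995. Ccl8 and Cd209g, genes of the resident macrophage list, gave 0.76 and 0.39 in Mgl2-DTR and 2.57 and 2.04 in wild-type mice, with a limma adjusted p of 0.995 each for the interaction. Both were low in Mgl2-DTR fat, Ccl8 at 4.70 to 6.10 and Cd209g at 3.79 to 4.30. Genes were called in this test without epididymal replicate 1 of Mgl2-DTR mice, and also without epididymal replicate 2 of wild-type mice. The former omission left Mgl2-DTR epididymal fat with replicate 2 alone, where the epididymal duct and testis list averaged 11.13. The cause of these calls was not tested.

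**Figure D5:**
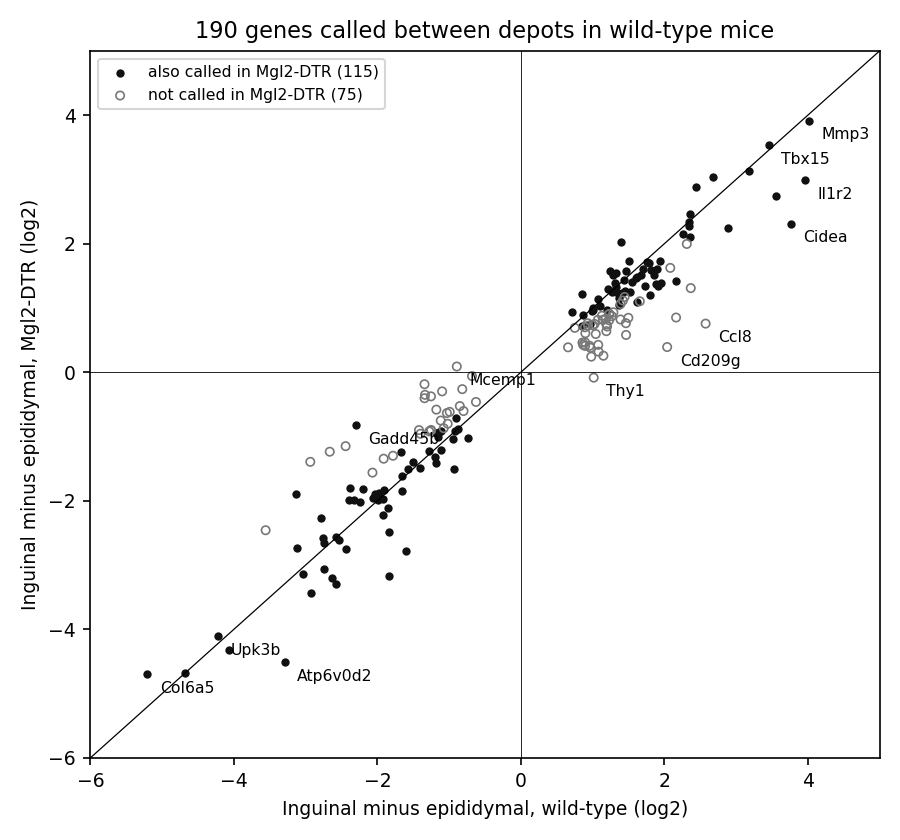
Inguinal minus epididymal difference (log2) of the 190 genes called in wild-type mice, with the Mgl2-DTR difference on the vertical and the wild-type difference on the horizontal axis. Filled points are also called in Mgl2-DTR mice (115), open points are not (75), and the diagonal is equality. Thy1 and Mcemp1 lie across 0, and Ccl8, Cd209g and Cidea lie below the diagonal.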

How the data were processed

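Total RNA of 2 fat depots and the liver was hybridised to expression arrays after amplification with the GeneChip WT PLUS kit and biotin labelling, per the labels' protocols. The authors deposited 1 log2 value per probe set and array; the submitters' processing notes name limma. How background was corrected and how arrays were normalized and summarized is not given in the sources used here, nor are detection calls. Array medians ran from 5.19 to 5.28. Gene names came from the platform annotation, in which 23521 of 41345 probe sets had 1 symbol, 1814 several and 16010 none listed. Symbols were checked through 23328 Entrez IDs found in RefSeq, and 0 changed. Each gene was read on the probe set with the highest mean over 12 arrays, and 1082 genes had more than 1. The number of unused columns was 0.

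Differences were tested with limma 3.58.1 in R 4.3.3, with 1 mean per group over 12 arrays, moderated by eBayes (6 residual and 3.35 prior degrees of freedom), two-sided, with Benjamini-Hochberg adjustment over 12710 genes. Genes named are the 16 largest called rises and 16 largest falls with non-overlapping depots, leaving out predicted genes, small RNAs, pseudogenes, olfactory receptors and immunoglobulin segments. Of each of 41 gene lists up to 4 called members per direction were taken, or the 3 smallest p where none was called. Added were 3 genes per direction for the interaction, and Mgl2. Not all of the uncalled members taken are printed above. Further members given with uncalled values, and called Hox, limb, mesothelial and Mcemp1 entries beyond these, were chosen after their values were seen. Members and lists were chosen with earlier results of these data known, so the lists support nothing independently.

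Same-numbered arrays were checked for pairing. The correlation of their deviations was 0.0974 between wild-type depots, and over all tissue pairs of both genotypes it ran from -0.0114 to 0.121. The labels state no pairing, so no block was used. On simulated data with 200 changed genes among 12710, the wild-type depot test recovered 49.2% of log2 changes of size 1, 90.4% of size 2 and 100% of size 3, with 6 false among 167 calls. The simulated noise was drawn independently for each gene and array, with the same changes in both genotypes. Shifts shared by many genes of an array were not simulated, so the recovery and false calls need not hold for the real arrays. The number of arrays limits the precision. The alternatives covered filters, probe choice, normalization, eBayes settings, array weights, replicate block, arrays included, threshold, a muscle covariate and leaving arrays out.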

Additional observations from a re-analysis of the deposited data

How the results depend on the processing

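Each gene named by rule could be tested in 24 to 27 settings. Called genes picked after their values were seen were not included, and some uncalled genes counted here are not printed above. The 68 named called genes kept their direction in every setting in which they were tested, and 8 kept the call in all of theirs (Mmp3, Il1r2, Cidea, Cox8b, Tbx15, Lncbate1, Col6a5 and Gadd45b), while 21 of 64 named genes that were not called passed in at least 1. For the wild-type depots (190 calls), a filter at the 75th percentile gave 125 calls, cyclic loess over the 8 fat arrays 96, the 8 fat arrays alone 86, the 4 wild-type fat arrays alone 10, an adjusted p under 0.10 317 and the skeletal muscle mean as a covariate 72. Leaving out both replicates 2 of wild-type fat gave 859 (219 higher, 640 lower). An alternative chosen after seeing the data, leaving out inguinal replicate 2 (muscle genes) and epididymal replicate 1 (macrophage genes), gave 117 (33 higher, 84 lower; 78 among the 190). In Mgl2-DTR fat (249 calls), the same settings in the same order gave 161, 108, 90, 498 for the looser threshold, 47 for the covariate, and 440 and 440 for the omissions. The interaction (0 calls; 364 at an unadjusted p under 0.05) gave 5 and 4 under the omissions. Leaving out 1 of the 12 arrays gave 73 to 1445 calls in wild-type fat (1445 without epididymal replicate 2: 478 higher, 967 lower; 183 without epididymal replicate 1: 56 higher, 127 lower), 74 to 539 in Mgl2-DTR fat and 0 to 123 in the interaction. The cause of these shifts was not tested. With the replicate number as a fixed block there were 161 calls in wild-type fat, 133 of them among the 190, 178 in Mgl2-DTR fat and 0 in the interaction, and with a random block 195. A quantile normalization repeated on the values gave 182 calls (110 higher, 72 lower). For genes under the 5.71 level in 1 depot, detection could not be judged.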

Other observations

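Outside the gene lists and the leading genes, several called genes with known stromal or developmental roles also differed between the wild-type depots, and they were picked here after their values were seen. Mmp2, a gelatinase that cuts collagen fragments, read 11.35 and 10.92 in inguinal fat and 9.01 and 9.36 in epididymal fat (1.95, SE 0.22, limma adjusted p = 0.00308). Mme, the peptidase neprilysin, read 10.76 and 10.61 in inguinal fat and 8.47 and 9.31 in epididymal fat (1.79, SE 0.25, limma adjusted p = 0.00801). Ntrk3, a neurotrophin receptor, rose by 1.93, Erbb4, a neuregulin receptor, by 1.70 and Twist1, a mesenchymal transcription factor, by 1.18. Oxtr, the oxytocin receptor, read 6.12 and 5.74 in inguinal fat and 7.84 and 7.87 in epididymal fat (-1.93, SE 0.24, limma adjusted p = 0.00424). Cdh11, a mesenchymal cadherin, fell by 1.66, and Gata5, a factor of visceral mesoderm and endoderm, by 1.12. In Mgl2-DTR fat the differences of Mmp2, Mme, Oxtr, Cdh11 and Gata5 were 1.39, 1.20, -1.97, -1.61 and -0.92.

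Small nuclear and nucleolar RNAs were left out of the naming rule. Of 72 tested by name, 66 had a difference above 0 in wild-type fat, 6 were called higher and 0 lower, and the median was 0.47. The called genes were Rnu3a, Snora73b, Snora62, Snord66, Snora73a and Snora61, with Rnu3a at 8.04 and 7.82 in inguinal fat and 6.57 and 6.64 in epididymal fat (1.33, SE 0.18, limma adjusted p = 0.00677). In Mgl2-DTR fat the median of the 72 was 0.23 and 2 were called.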
